A study of Mus musculus with 7 samples.

Results

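The genes described here are 54 mouse genes whose products carry out mitosis and chromosome segregation. They were listed by what their proteins do, but with earlier results of these data known. Their counts beside the shares of all genes are therefore a description, not an independent test. They are 54 of the 54532 features in the count table, and all 54 had enough counts to enter the test of 15441 genes. They were read in C3H10T1/2 cells, an established mouse embryonic mesenchymal line that can be driven toward bone, cartilage, fat and muscle fates and that the labels call mesenchymal stem cells. The study compared 3 untreated control cultures with 4 cultures induced toward osteoblasts (OB), the cells that build bone. Control and OB cultures share the line, with no genetic change named, and a base medium with 10% serum. OB cultures received in addition ascorbic acid at 50 µM, beta-glycerophosphate at 10 mM and dexamethasone for 3 days. The sources used here name penicillin-streptomycin for the OB medium only, and give no density, passage or time in culture for the controls. The replicates are biological per the design text, but nothing states that they came from separate thaws or lines, so p-values measure the spread between these cultures.

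A cell enters mitosis when CDK1 bound to cyclin B is switched on by CDC25 phosphatases. Chromosomes then condense, microtubules of the spindle attach to them at kinetochores, and a checkpoint holds back the anaphase-promoting complex until every kinetochore is attached. Separase is then released from securin and cuts cohesin, the sister chromatids part, and the cell divides by cytokinesis. Many of the genes for this machinery are transcribed late in the cell cycle from promoters bound by the MuvB core with B-MYB and FOXM1. Bone precursors commonly slow their divisions as they mature.

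Part of what the genes share lies in their promoters, so sequences are given first. RefSeq windows of 300 bases (250 before and 50 after the annotated start, build GRCm38.p6) were matched by symbol for 45 of the 54 genes. The RefSeq start lies 3867, 2394 and 1505 bases from the gene's start in the count table for Kif2c, Cdca8 and Kif14. For the others the distance is at most 328 bases (Kif4). No window was matched for Ccna2, Cdc25c, Foxm1, Aurkb, Incenp, Spc24, Kif20a, Tpx2 and Smc4. The cell cycle genes homology region (CHR), the element that the MuvB subunit LIN54 recognises, was searched as TTTGAA or TTCGAA on both strands. TTCGAA is its own reverse complement and was counted once. The CCAAT box, the element of the NF-Y factor, was searched as CCAAT on both strands, where the minus strand reads ATTGG. In the 8 stretches that follow, each from 120 bases before the start to 30 bases into the transcript, capitals mark CHR and CCAAT matches. They were chosen after the matches were seen, from genes on which the results turn: Ccnb2 (cyclin B2, chr9:70421525-70421674, minus strand), Cdk1 (chr10:69352883-69353032, minus strand), Cdc20 (chr4:118437314-118437463, minus strand), Bub3 (chr7:131560250-131560399, plus strand), Cenpf (chr1:189688057-189688206, minus strand), Aspm (chr1:139454653-139454802, plus strand), Espl1 (chr15:102296173-102296322, plus strand) and Pttg1 (chr11:43425952-43426101, minus strand), the last as an example with no match.
Ccnb2: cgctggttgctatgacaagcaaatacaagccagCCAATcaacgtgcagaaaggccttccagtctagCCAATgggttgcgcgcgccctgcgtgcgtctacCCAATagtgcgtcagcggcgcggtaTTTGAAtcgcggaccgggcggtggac
Cdk1: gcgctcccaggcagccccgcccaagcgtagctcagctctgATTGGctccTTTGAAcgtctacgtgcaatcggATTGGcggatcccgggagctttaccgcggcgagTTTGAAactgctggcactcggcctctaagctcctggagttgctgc
Cdc20: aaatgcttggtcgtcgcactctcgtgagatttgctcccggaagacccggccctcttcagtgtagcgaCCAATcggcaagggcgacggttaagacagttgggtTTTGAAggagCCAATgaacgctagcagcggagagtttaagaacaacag
Bub3: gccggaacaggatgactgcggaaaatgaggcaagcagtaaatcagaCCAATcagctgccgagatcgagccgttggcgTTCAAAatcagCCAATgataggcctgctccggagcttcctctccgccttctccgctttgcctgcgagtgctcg
Cenpf: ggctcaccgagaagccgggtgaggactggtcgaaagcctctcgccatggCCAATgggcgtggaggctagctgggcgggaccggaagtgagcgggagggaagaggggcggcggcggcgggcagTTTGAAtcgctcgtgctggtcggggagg
Aspm: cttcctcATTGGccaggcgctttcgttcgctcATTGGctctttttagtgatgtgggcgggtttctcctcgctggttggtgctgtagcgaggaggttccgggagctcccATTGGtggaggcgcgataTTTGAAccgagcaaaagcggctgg
Espl1: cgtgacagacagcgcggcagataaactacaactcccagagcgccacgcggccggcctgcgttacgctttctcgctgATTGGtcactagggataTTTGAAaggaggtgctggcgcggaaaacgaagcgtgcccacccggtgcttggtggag
Pttg1: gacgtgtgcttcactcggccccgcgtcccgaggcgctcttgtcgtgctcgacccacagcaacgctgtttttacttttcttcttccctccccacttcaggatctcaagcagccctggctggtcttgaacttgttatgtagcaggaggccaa

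Counting the first transcribed base as +1, the CHR marked in Ccnb2 begins at +5, that of Cenpf at +3 and that of Aspm at +7, each just inside the transcript. Ccnb2 has a further CHR match that begins at -167, outside the stretch shown. In Cdc20 the CHR begins at -18 and in Espl1 at -27. Upstream of its CHR at +5, Ccnb2 has 3 CCAAT boxes that begin at -87, -54 and -21. A CHR was found in the windows of 35 of 45 genes (77.8%), against 21.7% of 27025 genes with a RefSeq window and 16.0% of the 10608 other genes tested here. CCAAT was found in 32 of 45 (71.1%), against 41.1% of all genes and 43.1% of the other tested genes. Both motifs stood together in 30 of 45 (66.7%), against 8.61% of all genes. The GC box GGGCGG, an element of many promoters, was found in 77.8% of the 45 genes and in 67.4% of the other tested genes. TATAAA was found in 1 of the 45, against 8.89% of the other tested genes.

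The matches were also placed alike. Of 52 CHR matches in the genes' 48 windows (some genes have several starts), 35 (67.3%) lay from -50 onward, against 25.2% of CHR matches in all windows. Of 73 CCAAT matches, 59 (80.8%) lay between -150 and -1, against 60.3% in all windows. Neither motif was found for Plk4, Mad2l1, Birc5, Nuf2, Kif18a, Nusap1, Sapcd2 and Pttg1, which says only that these letters are not in these windows. Among the fold changes described next, the median log2 fold change was -1.95 in the 35 genes with a CHR and -1.96 in the 10 without.

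**Figure D1:**
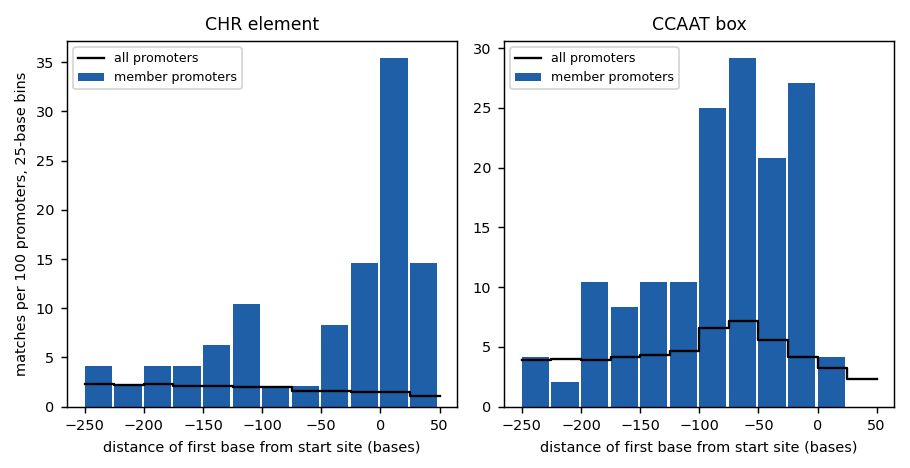
Motif matches per 100 promoters (vertical axes) in bins of 25 bases of distance from the annotated start (horizontal axes), CHR on the left and CCAAT on the right, with bars for the 48 windows of the mitotic genes and a line for all RefSeq windows. The CHR bars are highest in the bin from 0 to 25, at 35.4 per 100 against 1.44 in all windows, and the CCAAT bars are highest between -100 and the start.

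Sequencing depth was 21213328 to 46530017 counted fragments per library, so that 3 fragments equal 0.0645 to 0.141 CPM (the counts scaled to a common library total). The 54 genes had 49 to 21364 fragments each in a library. Mitochondrial genes took 1.55% to 1.61% of the counts in control and 1.70% to 1.97% in OB, and the part of this difference in the results was not tested. The labelled cell type was checked on 12 stromal markers, all of which were tested, led by Col1a1 and Col1a2. Their sum was 25951 to 32575 CPM in control and 19176 to 28499.9 CPM in OB. In the edgeR test described below, 1 of the 12, Pdgfra, was called higher and 0 were called lower. Of all genes 4.32% were called higher and 3.72% lower. Summed markers of other cells were low in every library, at 7.85 to 14.1 CPM for 8 macrophage genes (4 tested) led by Cd14 and Cd68, 2.70 to 10.4 CPM for 8 endothelial genes (1 tested) led by Tek and Vwf, and 1.06 to 4.04 CPM for 8 epithelial genes (2 tested) led by Cdh1 and Krt19. Adgre1, Tyrobp, Tie1, Epcam and Cldn4, a defining marker or more of each of these types, had no fragment in any library. Over all genes control 3 stood apart from the other controls. Its log2 CPM correlated across genes at 0.959 with control 1 and 0.956 with control 2, which correlated at 0.989 with each other. The OB libraries were split too. OB 1 and OB 2 correlated at 0.987 and OB 3 and OB 4 at 0.990, against 0.968 to 0.978 between these pairs. Control 3, OB 3 and OB 4 are the libraries whose sample descriptions carry no C number, a mark taken up below.

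Mitotic genes were lower in OB than in control in every role group. In edgeR's quasi-likelihood test, with p-values adjusted by Benjamini-Hochberg over every gene tested, 49 of the 54 passed the threshold of 0.05 as lower, where 3.72% of all genes were called lower. None was called higher, where 4.32% of all genes were. The fold change was negative for all 54, against 50.4% of all genes. All 49 called genes were at least 2-fold lower (2.3% of all genes), and 19 were at least 4-fold lower (0.674% of all genes). The median log2 fold change was -1.92, a 3.77-fold lower level, beside -0.0040 over all genes, and the 54 values ran from -2.79 for Sapcd2 to -0.53 for Bub3. Adjusted p-values of the called genes were 0.00613 to 0.0432. Unadjusted p was under 0.05 for all 54, against 12.4% of all genes that were lower with such a p. Every control library was above every OB library for 52 of the 54, against 12.3% of all genes, and Kif4 and Smc4 were the exceptions. In bulk RNA of this kind, fewer dividing cells and less of these RNAs per dividing cell cannot be told apart.

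**Figure D2:**
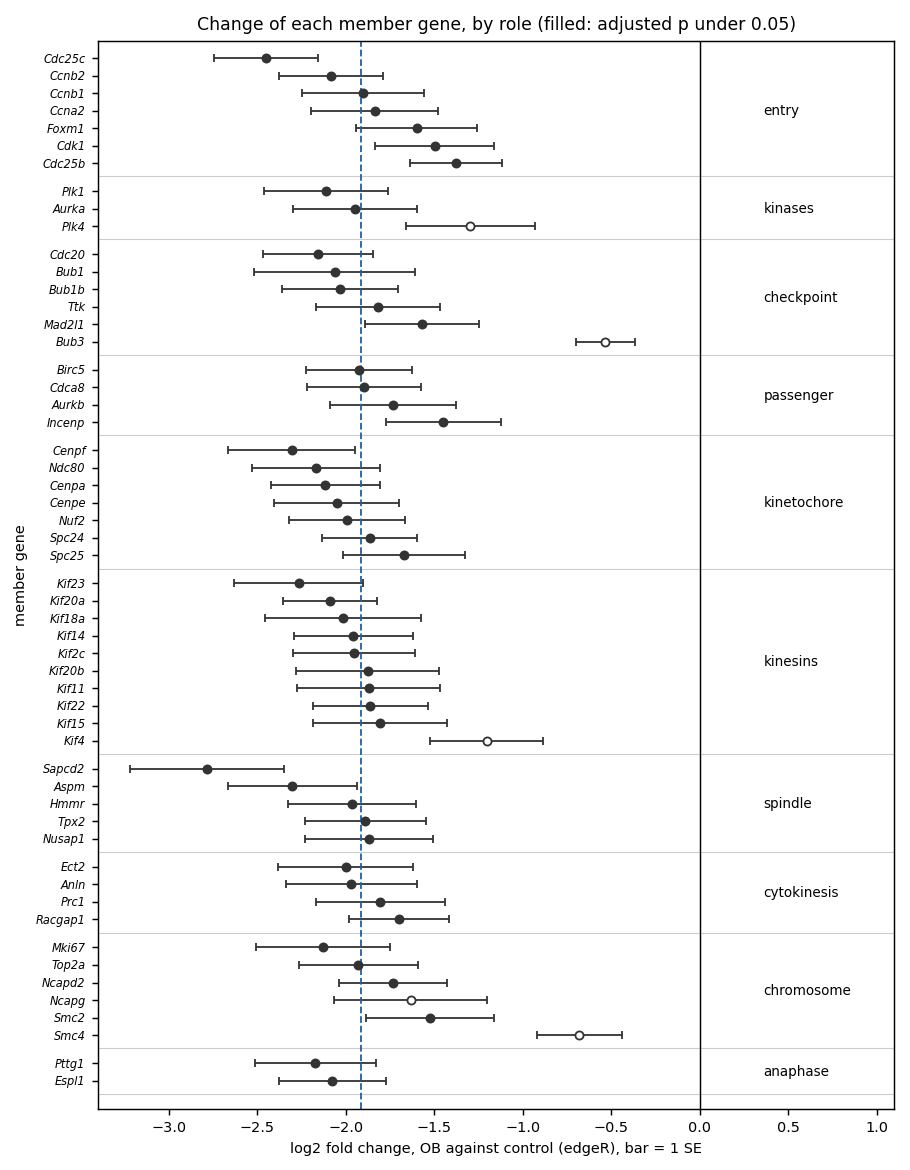
Log2 fold change of OB against control on the horizontal axis (bars, 1 SE) for the 54 genes, grouped by role on the vertical axis, with filled symbols for an adjusted p under 0.05. All 54 points lie left of 0, and the open symbols are Plk4, Bub3, Kif4, Ncapg and Smc4.

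The 3 control cultures were far from alike. For the mitotic genes, control 1 had the lowest level of the controls for 54 of 54, against 28.5% of all genes. Control 3 was the highest for 41 and control 2 for 13. As a share of all counted fragments, the 54 genes together took 0.279% in control 1, 0.659% in control 2 and 0.750% in control 3. In OB they took 0.133%, 0.150%, 0.177% and 0.200% in OB 1, 2, 3 and 4. Control 1 therefore stood between the OB libraries and the other controls, nearer to OB. Averaged over the 54 genes after each was centred on its mean over the 7 libraries, log2 CPM was 0.08, 1.34 and 1.57 for controls 1 to 3, respectively. For OB 1 to 4 the same score was -1.06, -0.84, -0.62 and -0.47. This spread enters the error of every fold change given below.

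Replicate spread was larger in control than in OB for each of the 54 genes, where this held for 59.6% of all genes. The median SD of log2 CPM was 0.85 in control and 0.28 in OB, beside 0.28 and 0.22 over all genes. Control 2 was above control 1 by a median of 2.46 times, with the smallest ratio for Bub3 (1.45) and the largest for Plk1 (3.10). Control 1 was above the OB mean by a median of 1.72 times, from 1.05 for Bub3 to 2.89 for Cdc25c. Within OB, OB 4 was highest for 41 genes and OB 1 lowest for 49, and the median ratio of OB 4 to OB 1 was 1.53.

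**Figure D3:**
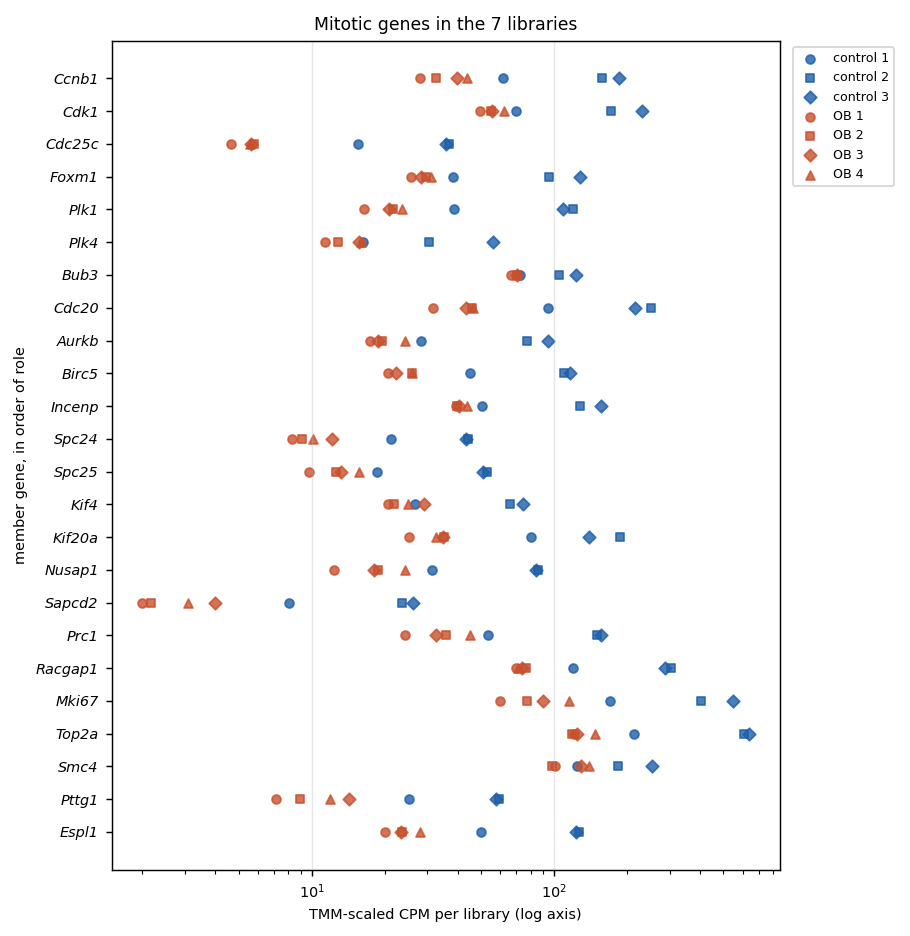
TMM-scaled CPM on a log axis (horizontal) of the genes with values given for each library, 1 row per gene and 1 symbol per library, 3 control and 4 OB. Control 1 lies between the OB libraries and controls 2 and 3 for all of these genes except Kif4 and Smc4.

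Among the genes of mitotic entry, 7 of 7 were lower, with a median log2 fold change of -1.84. Cdc25c encodes a phosphatase that activates CDK1, and it had the lowest p of all 54 genes. Its level was 15.6, 37.0 and 35.8 CPM in control 1, 2 and 3 and 4.63, 5.75, 5.60 and 5.54 CPM in OB 1, 2, 3 and 4. The lowest control was 2.71 times the highest OB library, and the log2 fold change was -2.45 ± 0.29 (SE; adjusted p = 0.00613). Ccnb1, which encodes cyclin B1, the main partner of CDK1 in mitosis, stood at 61.7, 158 and 185 CPM in the controls and at 28.0, 32.7, 39.7 and 43.9 CPM in OB. Its groups did not overlap, and the log2 fold change was -1.90 ± 0.35 (adjusted p = 0.0196). Cdk1, the kinase itself, was at 69.8, 171 and 230.1 CPM in control and at 49.5, 54.7, 55.6 and 62.3 CPM in OB. Control 1 exceeded OB 4 by a small margin, and the log2 fold change of Cdk1 was -1.50 ± 0.34 (adjusted p = 0.0365, and 0.0506 with the replicate number as a block). With that block 47 of the 54 genes were called lower, against 3.38% of all genes, and Cdk1 and Incenp were the ones lost.

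Foxm1 encodes the transcription factor that drives many late cell cycle genes. It was at 38.2, 95.6 and 128 CPM in control and at 25.6, 29.7, 28.4 and 31.1 CPM in OB, with no overlap (log2 fold change -1.60 ± 0.34, adjusted p = 0.0309). The other entry genes were Ccna2 (cyclin A2, -1.84), Ccnb2 (cyclin B2, -2.08) and Cdc25b, a further CDK1-activating phosphatase whose log2 fold change of -1.38 was the smallest among the 49 called genes.

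Of the 3 mitotic kinases Aurora A, PLK1 and PLK4, 2 were called lower. Plk1, whose kinase acts at centrosomes, kinetochores and the midbody, was at 38.6, 119.9 and 109 CPM in control and 16.5, 21.6, 20.8 and 23.6 CPM in OB. Here control 2 rather than control 3 was highest, and the groups did not overlap (log2 fold change -2.11 ± 0.35, adjusted p = 0.0152). Aurka, needed for centrosome maturation, had a log2 fold change of -1.95. Plk4, which starts centriole duplication, was at 16.4, 30.4 and 56.3 CPM in control and 11.4, 12.8, 15.7 and 15.9 CPM in OB. Control 1 was barely above OB 3 and OB 4 and control 3 was far above control 2, and Plk4 did not pass (log2 fold change -1.30 ± 0.37, adjusted p = 0.0688).

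In the spindle assembly checkpoint and its target, 5 of 6 genes were lower. Cdc20, the activator of the anaphase-promoting complex that the checkpoint holds back, was at 94.7, 251 and 216 CPM in control and 31.8, 45.8, 43.5 and 46.5 CPM in OB. The lowest control was 2.04 times the highest OB library (log2 fold change -2.16 ± 0.31, adjusted p = 0.0108). Per kilobase Cdc20 had the highest level of the 54 genes in control, at a mean of 100.2 CPM per kilobase of exon, and Kif18a had the lowest, at 2.53. Bub3, which brings BUB1 and BUBR1 to kinetochores, was at 72.5, 105 and 124 CPM in control and 66.2, 70.6, 70.1 and 70.3 CPM in OB. Control 1 was above the highest OB library by a small margin, and Bub3 did not pass (log2 fold change -0.53 ± 0.17, adjusted p = 0.0942). It had the smallest change of the 54 genes and also the smallest SD of log2 CPM within each group. The checkpoint kinases Bub1 (-2.06) and Ttk (-1.82), Bub1b, the gene for BUBR1 (-2.03), and Mad2l1, the gene for MAD2 (-1.57), were called lower, each with its log2 fold change in brackets.

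All 4 genes of the chromosomal passenger complex, which corrects faulty attachments and later marks the division plane, were lower. Birc5 (survivin) was at 44.8, 109.9 and 116 CPM in control and 20.6, 26.0, 22.3 and 26.0 CPM in OB, with a log2 fold change of -1.93 ± 0.30 (adjusted p = 0.0129). Aurkb, the kinase of the complex, was at 28.3, 77.2 and 94.1 CPM in control and 17.5, 19.4, 18.8 and 24.2 CPM in OB (log2 fold change -1.73 ± 0.36, adjusted p = 0.0279). Incenp, its scaffold, was at 50.4, 128 and 156 CPM in control and 39.4, 39.8, 40.4 and 43.9 CPM in OB. In all of these the groups were apart, by least in Incenp, whose log2 fold change was -1.45 ± 0.32 (adjusted p = 0.0351, and 0.0635 with the replicate number as a block). Cdca8 (borealin) had a log2 fold change of -1.90.

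Centromere and kinetochore genes were lower in 7 of 7 cases, with a median log2 fold change of -2.05. Spc24 and Spc25 encode the inner part of the NDC80 complex, the kinetochore's grip on microtubules. Spc24 was at 21.2, 44.2 and 43.1 CPM in control and 8.33, 9.09, 12.1 and 10.2 CPM in OB (log2 fold change -1.87 ± 0.27, adjusted p = 0.0108). Spc25 was at 18.6, 53.0 and 50.8 CPM in control and 9.71, 12.6, 13.2 and 15.7 CPM in OB (log2 fold change -1.67 ± 0.35, adjusted p = 0.0289). Neither overlapped between groups, and controls 2 and 3 were nearly level in both. The outer partners Ndc80 and Nuf2 had log2 fold changes of -2.17 and -1.99. Values of -2.12, -2.05 and -2.31 were found for Cenpa, the centromeric histone H3 variant, Cenpe, a kinetochore motor, and Cenpf, a large kinetochore protein.

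Of 10 mitotic kinesins, the motors that move chromosomes and build the spindle, 9 were lower. Kif20a, which works in the central spindle, was at 80.2, 188 and 140.0 CPM in control and 25.1, 35.2, 34.8 and 32.6 CPM in OB. It did not overlap between groups, control 2 was its highest library, and the log2 fold change was -2.09 ± 0.27 (adjusted p = 0.00755). Its exons overlap those of Cdc23 on the other strand over 33.2% of their length, and fragments there cannot be assigned by strand. Kif4, which acts on chromosome arms and in the midzone, was at 26.7, 66.1 and 74.4 CPM in control and 20.7, 21.9, 29.1 and 25.1 CPM in OB. OB 3 exceeded control 1, and Kif4 did not pass (log2 fold change -1.20 ± 0.32, adjusted p = 0.0574). The other 8 kinesins had log2 fold changes from -1.81 for Kif15 to -2.27 for Kif23, a part of the centralspindlin complex, and included Kif11, the motor that separates spindle poles (-1.87).

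Spindle assembly and orientation genes were lower in 5 of 5 cases. Sapcd2, which acts in spindle orientation, was at 8.04, 23.6 and 26.3 CPM in control and 1.99, 2.16, 3.98 and 3.10 CPM in OB. The lowest control was 2.02 times the highest OB library, and the log2 fold change of -2.79 ± 0.43 (adjusted p = 0.0127) was the largest of the 54. Nusap1, a microtubule-bundling protein, was at 31.4, 86.0 and 84.3 CPM in control and 12.3, 18.8, 18.1 and 24.3 CPM in OB (log2 fold change -1.87 ± 0.36, adjusted p = 0.0231). Its controls 2 and 3 were nearly level and OB 4 was the highest OB library. Aspm, which works at spindle poles, had -2.30, Hmmr -1.97, and Tpx2, the activator of Aurora A, -1.89 on the log2 scale.

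Cytokinesis genes were lower in 4 of 4 cases. Racgap1, the other part of centralspindlin, was at 119.9, 303 and 287 CPM in control and 69.4, 76.9, 74.1 and 71.1 CPM in OB (log2 fold change -1.70 ± 0.28, adjusted p = 0.0156). Prc1, which bundles the microtubules of the central spindle, was at 53.4, 149.9 and 157 CPM in control and 24.2, 35.7, 32.6 and 44.9 CPM in OB (log2 fold change -1.80 ± 0.37, adjusted p = 0.0270). The 4 OB libraries were close together for Racgap1 and spread by more for Prc1, and neither gene overlapped between groups. Anln (anillin), which scaffolds the contractile ring, had a log2 fold change of -1.97, and Ect2, the exchange factor that activates RhoA at the division plane, was also called lower.

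Among 6 genes of the chromosome surface, topoisomerase and condensin, 4 were lower. Mki67, which encodes the Ki-67 antigen used to mark dividing cells, was at 169, 405 and 547 CPM in control and 60.0, 77.1, 89.8 and 115 CPM in OB. The groups did not overlap, and its log2 fold change was -2.13 ± 0.38 (adjusted p = 0.0187). Top2a, which untangles sister DNA, was at 213, 608 and 641 CPM in control and 121, 119, 125 and 148 CPM in OB (log2 fold change -1.93 ± 0.34, adjusted p = 0.0177). Smc4, a core subunit of both condensins, was at 125, 184 and 254 CPM in control and 101, 97.8, 129 and 139 CPM in OB. Control 1 lay below OB 3 and OB 4, and Smc4 did not pass (log2 fold change -0.68 ± 0.24, adjusted p = 0.126). Its partner Smc2 passed at -1.52, the condensin I subunit Ncapd2 at -1.73, while Ncapg, with -1.63 and an adjusted p of 0.0572, did not.

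Both genes of the anaphase switch were lower. Espl1, which encodes separase, was at 50.0, 127 and 123 CPM in control and 20.0, 23.6, 23.4 and 28.0 CPM in OB (log2 fold change -2.08 ± 0.30, adjusted p = 0.0110). Pttg1, which encodes its inhibitor securin, was at 25.2, 59.6 and 57.9 CPM in control and 7.11, 8.97, 14.2 and 11.9 CPM in OB (log2 fold change -2.17 ± 0.34, adjusted p = 0.0132). Protease and inhibitor were thus lower side by side, and in both every control was above every OB library. A further 8 genes beside Kif20a share at least 10% of their exon bases with another gene, or of their 50-base words with another place in the transcriptome. They are Ccna2, Ccnb1, Cdc20, Cdc25c, Kif4, Ncapg, Plk1 and Prc1, and their counts are less certain for that reason.

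The number of genes called rested on single cultures. Without control 1 all 54 genes were called lower (4.43% of all genes tested), and without control 3 the count was 36 (3.2%). It was 11 without control 2 (0.675%) and 11 without OB 1 (0.662%). Without OB 2, OB 3 and OB 4 it was 21 (1.18%), 29 (1.45%) and 32 (1.29%). The fold change stayed negative for all 54 genes in each of these 7 fits. Called lower in all 7 fits were Ccnb2, Cdc25c, Cdc20, Cenpa, Cenpf, Spc24, Kif20a, Aspm, Sapcd2 and Espl1, 10 of 54 genes against 0.505% of all genes. Birc5 was lost only without OB 1 (adjusted p = 0.0507) and Pttg1 only without control 2 (adjusted p = 0.0508). Other tools moved the count less. DESeq2 called 52 lower (6% of all genes) and limma-voom 42 (7%), and each called 0 higher.

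The submitters' sample descriptions carry a C1, a C2 or no C number, with 1 control and 1 OB library for C1, 1 and 1 for C2, and 1 control and 2 OB libraries without a number. The meaning of these marks is not given in the sources used here. Within each of these sets the difference of OB minus control was negative for 54 of 54 genes. Its median in log2 CPM was -1.15 within C1, -2.19 within C2 and -2.15 within the libraries with no C number. Differences of at least 1 were found for 36 genes within C1 and for 52 within each of the other 2 sets. C1 holds control 1, the lowest of the controls. Whether the effect differed between the C-numbered libraries and those without a number was tested with an interaction term in edgeR. The test called 0 of 54 genes, with 0 at an unadjusted p under 0.05, while it called 6.5% of all genes and put 27.8% of them under 0.05 unadjusted. The lowest adjusted p was 0.225, for Ncapg. The interaction term was negative for 44 of the 54, with a median of -0.33, where negative is a larger fall in the libraries without a number. The libraries without a number hold 1 control, and C1 and C2, pooled in the other arm, had unlike medians. The result of this test therefore does not show that the sets responded alike. Fitted alone, the C1 and C2 libraries gave 17 of 54 genes called lower, against 3.41% of all genes, and the libraries with no C number gave 54, against 21.2%.

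**Figure D4:**
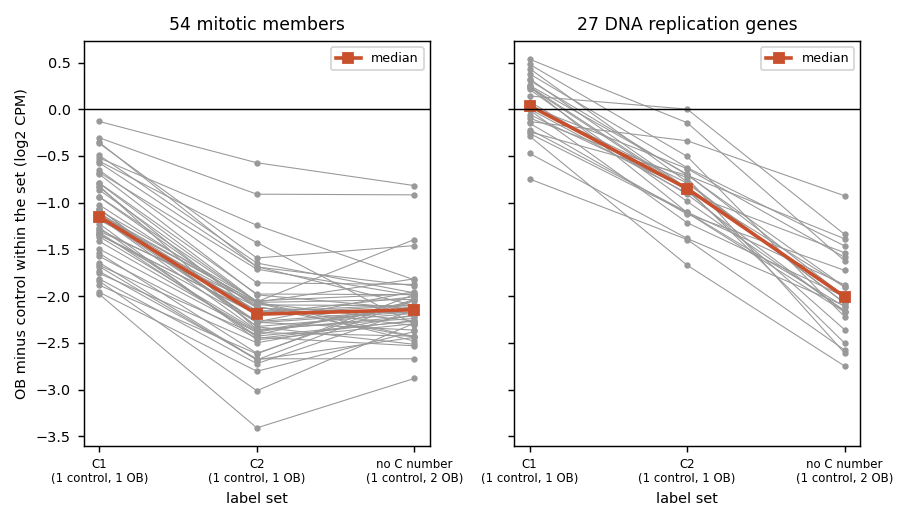
Difference in log2 CPM of OB minus control (vertical axes) within the libraries marked C1, those marked C2 and those with no C number (horizontal axes), with a grey line per gene and a thick line for the median, for the 54 mitotic genes on the left and 27 DNA replication genes on the right. All mitotic genes lie below 0 in each set, with medians of -1.15, -2.19 and -2.15, while the replication genes have medians of 0.04, -0.85 and -2.01.

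Genes of DNA replication, the step before mitosis, give a comparison within the same libraries. Of 27 such genes 4 were called lower and 0 higher, beside 3.72% and 4.32% of all genes. All 27 had a negative log2 fold change (50.4% of all genes), and the median was -1.11. Unadjusted p in edgeR was under 0.05 with a lower level for 23 of the 27, against 12.4% of all genes. Mcm5, a subunit of the replicative helicase, was at 51.3, 116 and 202 CPM in control and 42.0, 36.6, 28.3 and 31.8 CPM in OB (log2 fold change -1.83 ± 0.39, adjusted p = 0.0319). Lig1, which joins Okazaki fragments, was at 41.2, 80.1 and 129 CPM in control and 29.7, 30.7, 31.3 and 28.9 CPM in OB (log2 fold change -1.47 ± 0.32, adjusted p = 0.0328). Gins2, another helicase component, had -1.11 (adjusted p = 0.0428). For Mcm5 and Lig1 control 1 was nearer to the OB libraries than to control 3, which was far above control 2. None of the 27 was called with the replicate block (3.38% of all genes called lower). The count lower was 23 without control 1 (4.43%) and 18 by DESeq2 (6%). The count was 1 without control 3 and 0 without control 2 or any 1 OB library.

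Summed over the 27 replication genes, the level was 792, 1479 and 2631 CPM in control 1, 2 and 3, and 858, 829, 691 and 715 CPM in OB 1, 2, 3 and 4. By this sum control 1 was below OB 1 and OB 2. The same sum over the 54 mitotic genes was 2763 CPM in control 1 and 1339, 1531, 1739 and 1954 CPM in OB 1, 2, 3 and 4. Gene by gene, control 1 was above every OB library for 52 of these 54. Within C1 only 11 of 27 replication genes were negative, with a median of 0.04. Between controls 2 and 3 the lists also differed. The ratio of control 3 to control 2 had a median of 1.80 for the replication genes, all 27 above 1, and a median of 1.18 for the mitotic genes. Among mitotic genes this ratio ran from 0.745 for Kif20a to 2.06 for Kif18a, and Ncapg (1.97), Plk4 (1.85) and Bub1 (1.80) were also near the replication genes. No test was made of the difference between the lists, since each ratio compares 1 library with 1 other.

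**Figure D5:**
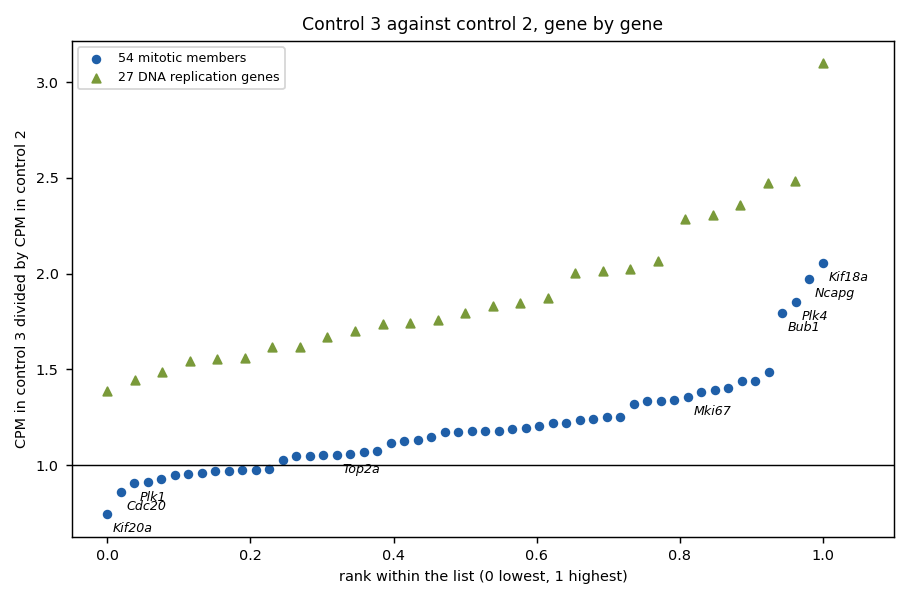
CPM in control 3 divided by CPM in control 2 (vertical axis) against rank within each list (horizontal axis), with circles for the 54 mitotic genes and triangles for the 27 replication genes. The triangles run from 1.38 to 3.10 and the circles from 0.745 to 2.06.

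Mitotic genes outside the 54 were lower as well, in part, beside 3.72% of all genes called lower and 4.32% called higher. Of 33 other kinetochore and centromere genes 18 were lower and 0 higher, with a median log2 fold change of -1.24. Ska1, which helps kinetochores hold microtubules, went from 16.5 ± 7.10 CPM in control to 3.98 ± 0.536 CPM in OB (SD, n = 3 and 4), with a log2 fold change of -2.05 ± 0.32. Pmf1 of the MIS12 complex (-1.24) and Cenpm (-1.92) followed it in order of p. Between 2 (without control 2 or OB 1) and 26 (without control 1) of the 33 passed when 1 library was left out. Of 33 other spindle, centrosome and cytokinesis genes 16 were lower and 0 higher, with a median of -1.34. Kif18b, a motor on spindle microtubules, went from 52.0 ± 23.4 CPM in control to 10.2 ± 1.12 CPM in OB, with a log2 fold change of -2.34 ± 0.31. Tacc3 (-1.98), which strengthens kinetochore fibres, and Cit (-2.03), the citron kinase of the midbody, were next. Between 4 (without OB 1) and 26 (without control 1) of these 33 passed when 1 library was left out.

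Genes of the anaphase-promoting complex and of cohesin were lower in part, beside the same 3.72% of all genes called lower and 4.32% called higher. Of 21 genes of the anaphase-promoting complex and mitotic exit 6 were lower and 0 higher, with a median of -0.22. Those of lowest p were Ube2c and Ube2s, the ubiquitin-conjugating enzymes of the complex (-2.06 and -1.26), and Mastl, a kinase that restrains phosphatases in mitosis (-1.80). With the replicate block 3 of the 21 were lower and 1 higher, beside 522 and 831 of all 15441 genes. In limma-voom 9 were lower and 1 higher, beside 1081 and 1247 of all 15441 genes. Of 17 cohesin and other condensin genes 5 were lower and 0 higher, with a median of -0.29. They were led by Ncaph2, a condensin II subunit (-0.86), Rad21, the cohesin subunit that separase cuts (-0.91), and Cdca5 (sororin, -1.74). Without control 1 the counts lower were 8 of 21 and 7 of 17 (4.43% of all genes). Without control 2 (0.675%) or OB 1 (0.662%) they were 0 for both lists.

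A list of 22 transcriptional regulators of the cell cycle includes MuvB subunits, B-MYB and NF-Y subunits, and also E2F factors. It leaves out Foxm1, a member of the mitotic list that was called lower (log2 fold change -1.60, edgeR adjusted p = 0.0309). Of these 22 regulators 0 were called by edgeR, where 3.72% of all genes were called lower and 4.32% higher. The fit without control 1 called 7 lower (4.43% of all genes). Without adjustment 8 had a p under 0.05 with a lower level (12.4% of all genes) and 2 with a higher one (12.8% of all genes). DESeq2 called 5 lower and 1 higher, beside 1128 and 1292 of all 18785 genes. In limma-voom 0 were lower and 1 higher, beside 1081 and 1247 of all 15441 genes. The log2 fold changes of the 22 regulators ran from -2.10 to 0.50, with a median of -0.30. They were negative for 17 of the 22, against 50.4% of all genes. The regulators with the highest levels were Rbbp4, a MuvB subunit, with a log2 fold change of -0.04 ± 0.15 (adjusted p = 0.905), and Tfdp1, the partner of E2F factors, with -0.44 ± 0.27 (adjusted p = 0.353). Mybl2, which encodes B-MYB and was picked after its values were seen, was at 8.38, 18.1 and 39.0 CPM in control and 10.8, 11.4, 9.35 and 8.89 CPM in OB (log2 fold change -1.11 ± 0.44, adjusted p = 0.160). Control 1 lay below every OB library for Mybl2, a pattern unlike that of Foxm1. A p above the threshold does not show that these regulators were unchanged.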

How the data were processed

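Total RNA of C3H10T1/2 cultures was extracted with Trizol and made into TruSeq libraries from fragmented mRNA, per the labels' protocols. Trimmomatic, HISAT2, featureCounts and mm10 are listed in the submitters' processing notes. The deposited table holds raw counts of fragments, made with featureCounts 1.6.4 on the Ensembl 94 annotation per the file headers. Strand was not used, and fragments in several genes or places were left uncounted. The deposited exon length served only to compare levels between genes. The order of inputs in the header's counting command, set against the sample descriptions, gave the sample of each numbered column. This match could not be checked in another way.

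Counts were tested in R 4.3.3 with edgeR 4.0.16 (filterByExpr, TMM factors of 0.981 to 1.024, quasi-likelihood test, Benjamini-Hochberg adjustment over 15441 genes, threshold 0.05). The SE is the log2 fold change divided by the square root of the F statistic. CPM are scaled by the TMM factors. The common biological coefficient of variation was 26.9%, and the procedure was tested on simulated data. DESeq2 1.42.0, limma 3.58.1 (voom), other scalings, no filter, blocks and leaving out each library were the alternatives. Libraries of 1 group differed by chi-square values of 13.6 to 148 per degree of freedom, far above sampling noise. Control and OB libraries of the same replicate number deviated together (correlations of 0.167, 0.523 and 0.398), past the bound of 0.1 set for pairing. Control 2 with OB 1 (0.209) and control 3 with OB 4 (0.270) passed it as well. The bound therefore does not single out pairs of the same number. In the replicate block, numbers 1 and 2 each join a control and an OB library with the same mark, C1 or C2. No mark sets OB 3 rather than OB 4 with control 3, and that pair rests on the replicate number and the data only. OB 4 has no control of its number, so in that block it does not enter the fold change.

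The 54 genes, their roles and the other lists were chosen with earlier results of these data known. Values per library were given for the genes of lowest and highest p in each of the 10 role groups and for Mki67, Ccnb1, Cdk1, Plk1, Aurkb, Foxm1, Pttg1 and Bub3. Of other lists up to 3 called genes in order of p were named, or the 2 of highest level where fewer than 2 passed. No set test was made. The dose of dexamethasone is left out because the labels write it ambiguously.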

Additional observations from a re-analysis of the deposited data

Results flagged for a closer look

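For 1 of the 54 genes, 1 of the 4 OB libraries stood apart from the other three. Bub3, the checkpoint protein gene with the smallest change, was at 66.2 CPM in OB 1 and at 70.1 to 70.6 CPM in the other OB libraries. The gap to the nearest library was 0.905 of the group's range, above Dixon's critical value for 4 samples. Chance flags about 5% of groups, and 54 OB groups were looked at.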

How the results depend on the processing

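None of the 54 mitotic genes changed direction under any of the 16 alternatives. From 49 called lower, the count was 49 with RLE or upper-quartile scaling, 52 with no filter or DESeq2, 42 with limma-voom, 54 with the label sets as a block, 17 in the C1 and C2 libraries alone, 54 in those with no C number, and 11 to 54 with 1 library left out. With the replicate number as a block, pairing control and OB libraries, 47 were lower, and Cdk1 and Incenp were lost. Over all genes, 667 were called higher and 574 lower. The counts were 1292 and 1128 by DESeq2, 1247 and 1081 by limma-voom, 1433 and 1256 with the label set block, and 831 and 522 with the replicate block. They were 1030 and 560 in the C1 and C2 libraries and 3052 and 3413 in those with no C number, where 1 control library is assumed to vary like the others. With 1 library left out, 190 to 575 were higher and 104 to 703 lower. The cause of these shifts was not tested. The lowest count of these genes in a library was 49 fragments, for Sapcd2, and 3 control libraries limit the precision.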

Other observations

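Genes listed as brakes on the cell cycle, with p53 and stress-response genes among them, did not move as 1 block. Of 14 listed genes 13 were tested, 3 were lower, 1 was higher and 9 were not called, and Cdkn1c had too few counts. Of all genes 3.72% were called lower and 4.32% higher. Sesn1, a stress-response gene, was the 1 called higher, at 65.8, 59.3 and 37.6 CPM in control and 134, 131, 117 and 136 CPM in OB (log2 fold change 1.26 ± 0.19, edgeR adjusted p = 0.0120). It was called higher in each fit that left out 1 library, and its lowest control was control 3, the library with the highest share of mitotic counts. The 3 called lower were Pkmyt1, a kinase that inhibits CDK1 (-1.47), Cdkn2c, an inhibitor of CDK4 and CDK6 (-1.03), and Trp53 (-0.48), on the log2 scale. Of these 3, 0 passed without control 2 or without OB 1, and 2 passed with the replicate block.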
